A study of Mus musculus with 12 samples.

Results

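Scavenger receptors are surface, lysosomal and secreted proteins of macrophages that bind modified lipoproteins, lipids, microbes and cell debris. Of the 38887 genes in the tables, 9 of this family were followed (Marco, Msr1, Cd36, Cd163, Cd68, Scarb1, Scarb2, Olr1 and Cd5l). Marco was put in the set because it was higher in KO than in WT macrophages, so its differences between the genotypes are described without a test. The other 8 genes were listed as members of the family, with earlier results of these data known. Bone marrow-derived macrophages (BMMs) came from 3 WT and 3 myeloid-specific IGF2BP2 KO mice aged 3 to 4 months. They were differentiated for 6 days with 50 ng/ml M-CSF, the growth factor that drives bone marrow cells to become macrophages. Cells of each mouse were left untreated (M0) or treated for 8 h with 20 ng/ml IL-4 (M2), a cytokine that induces alternative activation, which gave 12 RNA-Seq libraries in 4 groups of 3. KO mice carried Igf2bp2 (B6.Cg-Igf2bp2tm1.1Thor/J) with exons 4 and 5 between loxP sites together with Cre inserted in Lyz2 (29P2-Lyz2tm1(cre)Ifo/J). By the study's methods, WT mice were littermates with no floxed allele that had or lacked Cre. The labels do not say which applies to the 3 WT mice. Mice are numbered 1 to 3 within each genotype, and WT and KO mice of the same number are different animals.

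Class A scavenger receptors, such as Marco and Msr1, are trimers with a collagen-like stalk that take up bacteria, particles and modified LDL. Class B receptors, such as Cd36 and Scarb1, bind fatty acids, oxidized LDL or HDL, and their relative Scarb2 works inside the lysosome. Cd163 and Cd5l are built from cysteine-rich SRCR domains, Olr1 is a lectin-like receptor, and Cd68 is a heavily glycosylated protein of late endosomes that is widely used as a macrophage marker.

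The 250 bases before the start site were available from RefSeq (GRCm38.p6) for 7 of the 9 genes, all but Msr1 and Scarb1. Of these, 4 are printed 5′ to 3′ on the strand of the gene. Marco is shown as the gene the set was built around, and Cd5l and Olr1 as the genes that were lower in KO M0. Cd68 is shown as a gene without a call between the genotypes that holds the same motif as Olr1. Capitals mark a match to the STAT6 site (TTC, any 4 bases, then GAA) in Cd5l or to the AP-1 site TGACTCA, on either strand, in Olr1 and Cd68. The matches do not overlap with another searched motif. The 4 windows are Marco at chr1:120505025-120505274 (minus strand), Cd5l at chr3:87357631-87357880 (plus strand), Olr1 at chr6:129507166-129507415 (minus strand) and Cd68 at chr11:69666171-69666420 (minus strand).
Marco: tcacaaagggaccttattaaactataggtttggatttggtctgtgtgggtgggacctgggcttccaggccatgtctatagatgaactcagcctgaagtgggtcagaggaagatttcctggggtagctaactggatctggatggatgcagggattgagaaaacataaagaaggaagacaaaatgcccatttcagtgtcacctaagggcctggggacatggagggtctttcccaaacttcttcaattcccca
Cd5l: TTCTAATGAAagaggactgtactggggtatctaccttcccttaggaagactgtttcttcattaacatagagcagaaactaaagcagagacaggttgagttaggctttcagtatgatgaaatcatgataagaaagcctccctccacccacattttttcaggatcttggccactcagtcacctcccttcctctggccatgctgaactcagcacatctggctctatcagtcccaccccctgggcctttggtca
Olr1: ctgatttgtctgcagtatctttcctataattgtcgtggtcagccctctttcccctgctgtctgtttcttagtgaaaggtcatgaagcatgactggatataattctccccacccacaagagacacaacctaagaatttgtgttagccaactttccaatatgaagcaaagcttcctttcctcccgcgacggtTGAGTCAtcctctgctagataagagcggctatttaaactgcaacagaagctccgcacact
Cd68: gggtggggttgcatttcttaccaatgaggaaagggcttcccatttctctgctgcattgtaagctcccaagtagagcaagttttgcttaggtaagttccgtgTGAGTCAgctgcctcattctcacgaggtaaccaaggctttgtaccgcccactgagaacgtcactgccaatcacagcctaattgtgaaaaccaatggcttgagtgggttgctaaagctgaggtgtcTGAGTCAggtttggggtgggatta
The STAT6 letters were found in 1 of the 7 windows (Cd5l, 250 bases before the start) and in 5.85% of 32851 mouse promoter windows of this length. The AP-1 letters were found in Olr1 (60 bases before the start) and at 149 and 24 bases in Cd68, against 4.46% of all windows. The core of the antioxidant response element, TGACNNNGC, was found in Scarb2 (10.2% of all windows), and the PU.1 letters GAGGAAGT in none of the 7 (2.44% of all windows). These matches describe letters in 1 window per gene, and binding was not measured.

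Levels are given as TPM, transcript abundance scaled by gene length and by the total of a library, so that genes can be compared. Cd36 and Cd68 were by far the most abundant members and held between 76.3% and 90.8% of the summed TPM of the 9 genes in every library. Msr1 and Cd5l ranged from 144 to 511 TPM and Scarb1, Scarb2 and Marco from 17.1 to 128 TPM, whereas Cd163 and Olr1 stayed under 1 TPM in all 12 libraries. Fold changes below are log2 values from an edgeR fit of 12846 genes, in which a call means an adjusted p under 0.05. In bulk RNA, fewer cells of a type and less RNA per cell cannot be told apart.

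**Figure D1:**
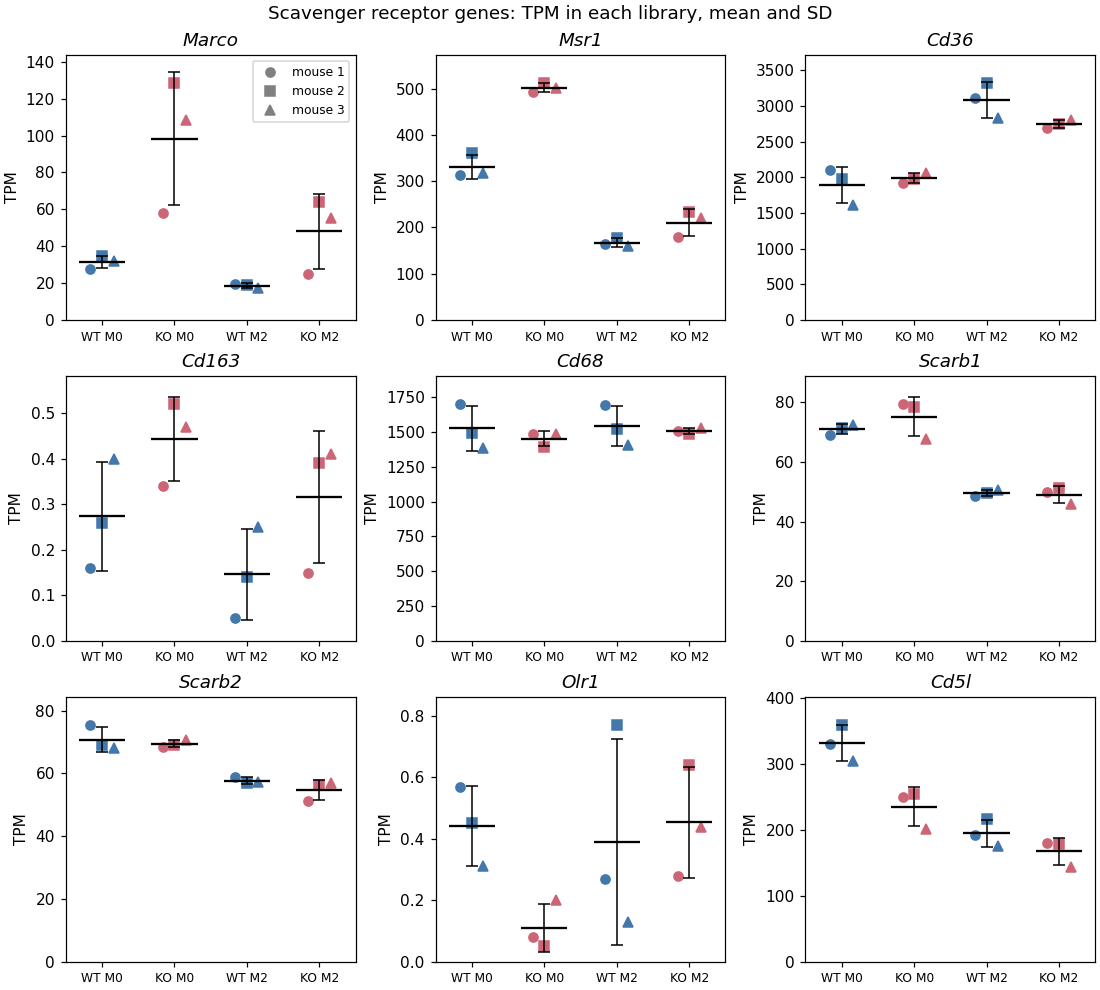
TPM of the 9 scavenger receptor genes (vertical axes, from 0) in the 12 libraries, grouped as WT M0, KO M0, WT M2 and KO M2. Each symbol is 1 mouse, the bar is the mean and the whisker the SD of 3 libraries. Marco is highest in KO M0 (58.1 to 128 TPM), Cd36 rises with IL-4 in both genotypes, and Cd163 and Olr1 stay under 1 TPM.

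Depth and cell identity were checked over the whole libraries. In M0 the smallest and largest WT libraries held 24942666 and 29832430 counts, and the KO libraries 26568719 and 37054582. In M2 the corresponding totals were 20011792 and 22744704 for WT, and 27347077 and 39632770 for KO. All KO M2 libraries were thus deeper than the WT M2 libraries. The 7 macrophage markers were all present, with a summed level of 2127 to 2477 TPM in WT M0 and 2301 to 2431 TPM in KO M0. Of these 7, Itgam, an integrin subunit, was called as higher in KO M0 (0.45, edgeR adjusted p = 0.00396). The 6 IL-4 response markers together went from 69.3 to 135 TPM in M0 to 6622 to 8463 TPM in M2. The 10 neutrophil markers summed to 28.1 to 67.6 TPM in WT M0 and 22.8 to 23.9 TPM in KO M0, with Ly6g at 0 in all 12 libraries. Of the 6 tested, the granule genes Ngp (-1.82, edgeR adjusted p = 0.0180) and Ltf (-2.09, edgeR adjusted p = 0.00759) and S100a9 (-1.38, edgeR adjusted p = 0.0124) were called as lower in KO M0. These 4 marker genes are named after their values were seen. Stromal markers summed to 13.1 to 23.2 TPM in WT M0 and 4.63 to 13.9 TPM in KO M0, and to 39.1 to 46.6 and 22.3 to 31.5 TPM in WT and KO M2. The higher sums in M2 were mostly due to Pecam1, whose mean went from 1.04 to 25.5 TPM in WT and from 0.71 to 20.4 TPM in KO. Of the 6 stromal markers tested, 1 was called as higher and 1 as lower with IL-4 in each genotype. Lymphocyte markers summed to 7.64 to 13.0 TPM over all libraries, with Cd3e and Cd3d at 0, and dendritic cell markers to 4.86 to 9.31 TPM in M0 and 19.9 to 32.7 TPM in M2. Itgax held most of the dendritic sum, and its mean went from 5.43 to 29.6 TPM in WT and from 7.20 to 21.1 TPM in KO with IL-4. Pecam1 and Itgax are also named after their values were seen. Markers of alveolar and splenic macrophages, the tissue cells best known for Marco, summed to 18.9 to 26.8 TPM in WT M0 and 20.3 to 21.7 TPM in KO M0, with Car4, Timd4, Clec4f and Cd209b at 0 in both groups. The part of these markers in the results below was not tested. Igf2bp2, counted over the whole gene and thus with the exons that remain, had a log2 fold change of -0.11 in M0 (edgeR adjusted p = 0.656) and -0.65 in M2 (edgeR adjusted p = 0.0285). The M2 call was lost without any 1 of 4 M2 libraries (WT mice 1 and 2, KO mice 2 and 3), with adjusted p up to 0.127. It was also lost with limma (adjusted p 0.0811 and 0.0819) and without both libraries of KO mouse 1 (edgeR adjusted p = 0.0595). By assays other than these libraries, the study reports Igf2bp2 mRNA and protein as near undetectable in KO BMMs. Single exons were not counted here. Lyz2, the lysozyme gene that holds Cre, differed by -8.30 in M0 and by -8.57 in M2 on the log2 scale. In every value for KO against WT, the loss of IGF2BP2, the Cre insertion and the lower Lyz2 cannot be told apart.

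Marco (ENSMUSG00000026390, chr1:120474538-120505024 on the minus strand in GRCm38) encodes the macrophage receptor with collagenous structure, which binds bacteria and inhaled particles. In WT M0 macrophages Marco stood at 27.7, 34.7 and 31.7 TPM in mice 1, 2 and 3, and in KO M0 macrophages at 58.1, 128 and 108 TPM. In WT M2 it stood at 19.7, 18.8 and 17.1 TPM, and in KO M2 at 25.01, 64.0 and 55.0 TPM. Every KO library lay above every WT library of the same treatment, and KO mouse 1 was the lowest KO mouse in both treatments. The log2 difference between KO and WT, on which the gene was selected, was 1.66 in M0 (3.16-fold) and 1.39 in M2 (2.63-fold). Without both libraries of KO mouse 1 these values were 1.93 and 1.68, and without KO mouse 2 of the same treatment 1.42 and 1.15.

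By group mean, Marco was ordered KO M0 (98.3 ± 36.2 TPM, SD, n = 3), KO M2 (48.0 ± 20.4 TPM), WT M0 (31.4 ± 3.51 TPM) and WT M2 (18.6 ± 1.29 TPM). The ranges of KO M2 and WT M0 overlapped, as KO mouse 1 with IL-4 had less Marco than any untreated WT mouse. The SD of log2 CPM (counts relative to the library total) was 0.61 in KO M0 and 0.68 in KO M2, against 0.19 in WT M0 and 0.10 in WT M2. As a share of the TPM of Msr1, its class A relative, Marco made up 8.86% to 10.0% in WT M0, and 11.8%, 25.1% and 21.6% in KO mice 1, 2 and 3. With IL-4 the share was 10.6% to 12.0% in WT and 14.0%, 27.4% and 25.03% in KO. The KO values lay above WT in both treatments, with KO mouse 1 nearest to the WT range.

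IL-4 lowered Marco in every mouse. The M2 level was 0.71, 0.54 and 0.54 of the M0 level in WT mice 1, 2 and 3, and 0.43, 0.50 and 0.51 in the KO mice. The log2 fold change was -0.96 (SE 0.29) in KO, with an edgeR adjusted p of 0.0145, and -0.69 (SE 0.33) in WT, with an edgeR adjusted p of 0.0978. Marco was selected on these same libraries, so these tests are not independent of its selection. With the mouse as a block, which pairs the M0 and M2 libraries of 1 animal, the WT change was also called (-0.69, edgeR adjusted p = 9.26e-05, the lowest of 15 alternatives that reached up to 0.206). It was also called without a filter on low counts (edgeR adjusted p = 0.0487), with only the WT libraries (edgeR adjusted p = 9.77e-04) and without both libraries of KO mouse 1 (edgeR adjusted p = 4.51e-04). Without the KO M0 library of mouse 2 the KO change was -0.72 and was no longer called (edgeR adjusted p = 0.0771, the highest of 15 alternatives, the lowest being 1.81e-06). Its responses in the 2 genotypes differed by -0.27 on the log2 scale (KO minus WT), a value that includes those the gene was selected on and is given without a test.

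**Figure D2:**
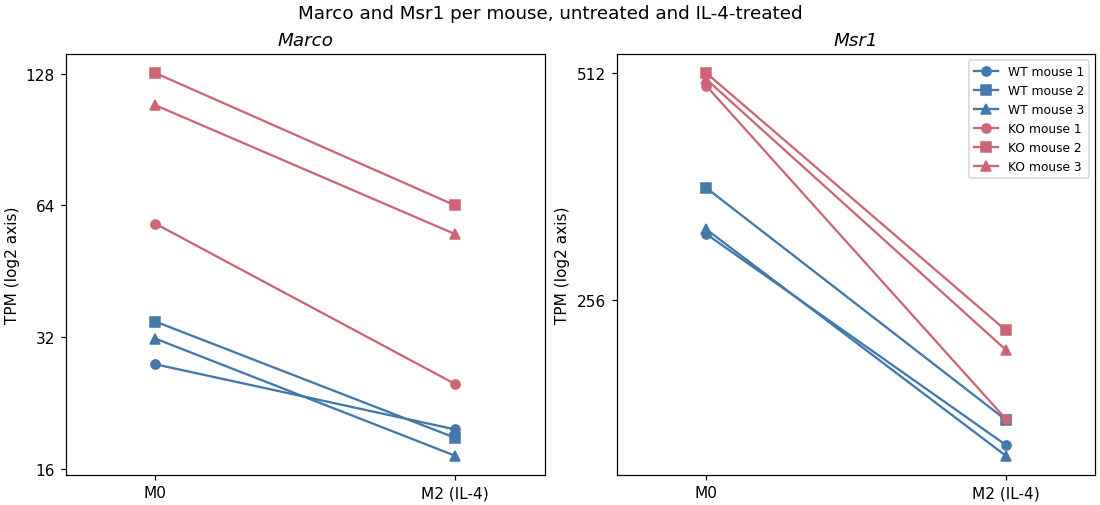
TPM of Marco and Msr1 (vertical axes on a log2 scale) in M0 and M2 macrophages, with 1 line per mouse, WT in blue and KO in red. Every line falls with IL-4, and KO mouse 1 lies nearest to WT for Marco in both treatments (58.1 and 25.01 TPM) and for Msr1 in M2 (178 TPM).

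Msr1 (ENSMUSG00000025044, chr8:39581685-39642673, minus strand), the macrophage scavenger receptor that takes up acetylated and oxidized LDL, was the member called as higher in KO in both treatments. It stood at 313, 360 and 317 TPM in WT M0 and at 492, 511 and 502 TPM in KO M0. In M2 it stood at 164, 178 and 159 TPM in WT and at 178, 233 and 220 TPM in KO. The groups did not overlap in M0, whereas KO mouse 1 in M2 (178.02 TPM) lay just above the highest WT value (177.5 TPM). The log2 fold change was 0.60 in M0 (SE 0.07, edgeR adjusted p = 4.02e-04) and was called under all 15 alternatives (0.53 to 0.65). In M2 it was 0.35 (SE 0.07, edgeR adjusted p = 0.0257), a 1.27-fold difference. That call was lost in 5 of 6 fits without 1 library (each WT M2 library, and those of KO mice 2 and 3, edgeR adjusted p 0.0553 to 0.0981) and with limma (adjusted p 0.101 and 0.104). The direction held in each of these fits.

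IL-4 lowered Msr1 by a log2 fold change of -0.97 in WT (SE 0.07, edgeR adjusted p = 1.36e-07) and -1.22 in KO (SE 0.07, edgeR adjusted p = 1.47e-08). Per mouse, the M2 level was 0.53, 0.49 and 0.50 of the M0 level in WT and 0.36, 0.46 and 0.44 in KO, so that each KO mouse showed a larger fall than each WT mouse. The difference between the responses was -0.25 (95% interval -0.46 to -0.04), with an unadjusted p of 0.0225 and an edgeR adjusted p of 0.194. With the mouse as a block it was -0.26 and passed the threshold (edgeR adjusted p = 0.0492, the lowest of 20 alternatives that reached up to 0.373). The comparisons between genotypes and the IL-4 comparisons share libraries, and their values are not independent of each other.

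Cd36 (ENSMUSG00000002944, chr5:17781690-17888801, minus strand), the fatty acid translocase and receptor for oxidized LDL, was an abundant member whose rise with IL-4 was called in both genotypes. Its level in M0 was 2101, 1975 and 1615 TPM in WT and 1924, 1971 and 2062 TPM in KO. In M2 it was 3113, 3320 and 2827 TPM in WT and 2694, 2752 and 2803 TPM in KO. The M2 values lay above all M0 values in both genotypes, and with IL-4 every KO value lay below every WT value on the TPM scale. As CPM, the counts that were tested, the genotypes overlapped in M2, with KO mouse 1 (5669 CPM) above WT mouse 3 (5586 CPM). IL-4 raised Cd36 by a log2 fold change of 0.77 in WT (SE 0.07, edgeR adjusted p = 2.22e-06) and 0.55 in KO (SE 0.07, edgeR adjusted p = 3.82e-05). The genotypes differed by 0.08 in M0 (edgeR adjusted p = 0.528) and by -0.14 in M2 (95% interval -0.29 to 0.02, edgeR adjusted p = 0.314), neither of which passed. The M2 level was 148%, 168% and 175% of the M0 level in WT and 140.0%, 139.6% and 135.9% in KO. These responses differed by -0.22 (95% interval -0.44 to 0.005), which did not pass (edgeR adjusted p = 0.292). In M2 the level of Cd36 was 1.79 to 2.18 times that of Cd68, against 1.16 to 1.42 times in M0.

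Scarb1 (ENSMUSG00000037936, chr5:125277087-125341094, minus strand) encodes SR-BI, the HDL receptor that takes up cholesteryl esters. It stood at 69.2, 71.4 and 72.4 TPM in WT M0, 79.4, 78.5 and 67.8 TPM in KO M0, 48.5, 49.6 and 50.6 TPM in WT M2, and 50.0, 51.4 and 45.8 TPM in KO M2. The M2 values lay below all M0 values, and the genotypes overlapped in both treatments. IL-4 lowered it by -0.47 in WT (SE 0.07, edgeR adjusted p = 1.50e-04) and -0.53 in KO (SE 0.07, edgeR adjusted p = 4.05e-05). The differences between KO and WT were 0.09 in M0 (95% interval -0.06 to 0.25) and 0.03 in M2 (95% interval -0.13 to 0.19), with edgeR adjusted p of 0.463 and 0.865.

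Scarb2 (ENSMUSG00000029426, chr5:92441314-92506833, minus strand) encodes LIMP-2, which carries β-glucocerebrosidase to the lysosome. Its level was 75.4, 68.9 and 68.0 TPM in WT M0, 68.6, 69.2 and 70.8 TPM in KO M0, 59.0, 57.1 and 57.2 TPM in WT M2, and 51.2, 56.2 and 56.9 TPM in KO M2. Scarb2 had the smallest spread of the 9 genes, with a pooled SD of 0.04 on the log2 CPM scale. A small fall with IL-4 was therefore called in both genotypes, by -0.23 in WT (SE 0.04, edgeR adjusted p = 8.28e-04) and -0.26 in KO (SE 0.04, edgeR adjusted p = 2.26e-04). In M2 every KO value lay below every WT value as TPM but not as CPM, and the difference between KO and WT did not pass (-0.05, 95% interval -0.15 to 0.05, edgeR adjusted p = 0.551). In M0 it did not pass either (-0.02, 95% interval -0.11 to 0.08).

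Cd68 (ENSMUSG00000018774, chr11:69664213-69666153, minus strand) had no call in the edgeR fit with the mice unpaired, as was also the case for Cd163. It stood at 1699, 1491 and 1386 TPM in WT M0, 1484, 1391 and 1484 TPM in KO M0, 1692, 1522 and 1408 TPM in WT M2, and 1507, 1484 and 1531 TPM in KO M2. All 4 groups overlapped. The log2 fold change was -0.06 (95% interval -0.20 to 0.08) for KO against WT in M0, 0.00 (-0.14 to 0.14) in M2, 0.06 (-0.09 to 0.20) for IL-4 in WT and 0.11 (-0.03 to 0.25) for IL-4 in KO. The last of these was called with the mouse as a block (0.11, edgeR adjusted p = 0.0292, the lowest of 15 alternatives that reached up to 0.608). The M2 level was 1.02, 1.07 and 1.03 times the M0 level in the KO mice.

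Cd5l (ENSMUSG00000015854, chr3:87357881-87371073, plus strand) encodes the secreted protein AIM (apoptosis inhibitor of macrophages), which binds fatty acid synthase and debris. It stood at 331, 359 and 305 TPM in WT M0 and at 250, 255 and 201 TPM in KO M0, without overlap. With IL-4 it stood at 193, 216 and 176 TPM in WT and at 180, 179 and 144 TPM in KO, and the ranges overlapped. The difference between KO and WT in M0 was -0.49 (SE 0.11, edgeR adjusted p = 0.0177). The call was lost without the WT M0 library of mouse 2 (-0.43, edgeR adjusted p = 0.0838) or the KO M0 library of mouse 3 (-0.39, edgeR adjusted p = 0.0775), with the other alternatives down to 7.52e-04. In M2 the difference was -0.19 (95% interval -0.44 to 0.05, edgeR adjusted p = 0.359). The neutrophil markers listed above had a lower sum in every KO M0 library than in any WT M0 library, whereas the sums of the stromal markers overlapped. Their part in these values was not tested.

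IL-4 lowered Cd5l by -0.70 in WT (SE 0.11, edgeR adjusted p = 1.96e-04) and by -0.41 in KO (SE 0.11, edgeR adjusted p = 0.00816). The M2 level was 0.58, 0.60 and 0.58 of the M0 level in WT mice and 0.72, 0.70 and 0.71 in KO mice, so that the mice of the 2 genotypes did not overlap. The difference between the responses was 0.30 (95% interval -0.05 to 0.64) and did not pass (edgeR adjusted p = 0.355). It passed with the mouse as a block (0.30, edgeR adjusted p = 0.0218, the lowest of 20 alternatives that reached up to 0.580). Among the members, Cd5l and Msr1 thus both had a difference between the responses that was called with the mouse as a block and not without it.

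Olr1 (ENSMUSG00000030162, chr6:129485244-129507165, minus strand) encodes LOX-1, a receptor for oxidized LDL best known in endothelial cells. It was near the lower limit of detection, with 24, 26 and 16 counts in WT M0, 4, 4 and 14 in KO M0, 12, 12 and 5 in WT M2, and 16, 22 and 19 in KO M2. The gene length assigned to it by the authors' quantification varied from 1377 to 3491 nucleotides between libraries, so that 12 counts gave 0.27 TPM in WT M2 mouse 1 and 0.77 TPM in WT M2 mouse 2. It is therefore compared by its counts. Over the pooled counts of a group it reached 0.79 CPM in WT M0 (exact Poisson 95% interval 0.61 to 1.00, counting error only) and 0.22 (0.14 to 0.34) in KO M0. The difference in M0 was -1.78 (SE 0.42, edgeR adjusted p = 0.0205). The call was lost without the library of WT mouse 2, KO mouse 1 or KO mouse 2 (edgeR adjusted p 0.0855, 0.0780 and 0.0941). It was also lost without both libraries of KO mouse 1 (edgeR adjusted p = 0.0884) and in the limma fits of log2 TPM (adjusted p 0.189 and 0.106). Without the library of KO mouse 3 the difference was -2.56 (edgeR adjusted p = 0.00954, the lowest of 14 alternatives), over 1.5 times the fold of the full set.

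With IL-4, Olr1 changed by 1.35 in KO (SE 0.43, edgeR adjusted p = 0.0178) and by -0.66 in WT (SE 0.41, edgeR adjusted p = 0.197). The KO call was lost without the M0 library of KO mouse 1 (1.17, edgeR adjusted p = 0.0686) or KO mouse 2 (1.00, edgeR adjusted p = 0.0838). It was also lost without both libraries of KO mouse 1 (edgeR adjusted p = 0.122, the highest of 14 alternatives, the lowest being 0.00196) and with limma on log2(TPM + 1) (0.38, adjusted p = 0.0617). The lowest adjusted p came without the M0 library of KO mouse 3, where the change was 2.14. Its responses differed by 2.01 (95% interval 0.73 to 3.29), with an edgeR adjusted p of 0.0868, which passed only without the KO M0 library of mouse 3 (2.80, edgeR adjusted p = 0.0361, the others reaching up to 0.364). The values of Olr1 rest on few counts and on the KO M0 libraries with 4 counts each.

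Cd163 (ENSMUSG00000008845, chr6:124304656-124330527, plus strand), the receptor for haemoglobin-haptoglobin complexes, was also low. It had 12, 19 and 26 counts in WT M0, 22, 48 and 41 in KO M0, 3, 7 and 12 in WT M2, and 11, 38 and 39 in KO M2. Its level was 0.05 to 0.40 TPM in the WT and 0.15 to 0.52 TPM in the KO libraries, and the genotypes overlapped in both treatments. Both differences between KO and WT were positive, 0.70 in M0 (SE 0.44, edgeR adjusted p = 0.347) and 1.19 in M2 (SE 0.52, unadjusted p = 0.0391, edgeR adjusted p = 0.221), and neither passed. The changes with IL-4 were -0.86 in WT (SE 0.54, edgeR adjusted p = 0.204) and -0.37 in KO (SE 0.42, edgeR adjusted p = 0.483). With the mouse as a block the WT change was called (-0.89, edgeR adjusted p = 0.0483, the lowest of 15 alternatives that reached up to 0.542). In each of the 6 mice Cd163 was lower in M2 than in M0.

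Over the set, 3 of the 8 members tested were called between KO and WT in M0 (Msr1 higher, Olr1 and Cd5l lower), against 9.78% of all genes (5.50% higher and 4.27% lower). In M2, 1 of 8 was called (Msr1 higher), against 2.68% of all genes (1.21% higher and 1.46% lower). The median log2 difference of the 8 was 0.03 in M0 and 0.01 in M2, against -0.001 for all genes in both. The 8 genes were of mixed direction, and the set as such did not move one way with the genotype. They were chosen with earlier results of these data known, so that the shares describe the set and do not test it.

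IL-4 changed 5 of the 9 members in WT (Cd36 higher, and Msr1, Scarb1, Scarb2 and Cd5l lower), where 50.0% of all genes were called, 24.9% higher and 25.1% lower. In KO, 7 of 9 were called (Cd36 and Olr1 higher, and Marco, Msr1, Scarb1, Scarb2 and Cd5l lower), where 52.8% of all genes were called, 26.8% higher and 26.0% lower. The call of Marco among them rests on libraries that its selection used. The median log2 fold change of the 9 was -0.66 in WT and -0.37 in KO, against -0.01 and 0.01 for all genes. These medians are the values of Olr1 in WT and of Cd163 in KO, both under 1 TPM and not called there. A share of called members near that of all genes is no result about the set, and the direction of the called members was not tested against that of all genes. With the mouse as a block 7 of 9 were called in WT and 8 of 9 in KO, where the same fit called 54.6% and 58.2% of all genes.

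For the difference between the IL-4 responses, edgeR called 0 of the 8 members tested, against 3.24% of all genes (1.11% higher and 2.13% lower). At an unadjusted p under 0.05 there were 2 members (Msr1 and Olr1), while DESeq2 and limma also called 0 of 8. With the mouse as a block the count was 2 (Msr1 and Cd5l), while over all genes it moved from 416 to 1003 (7.81% of all genes).

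**Figure D3:**
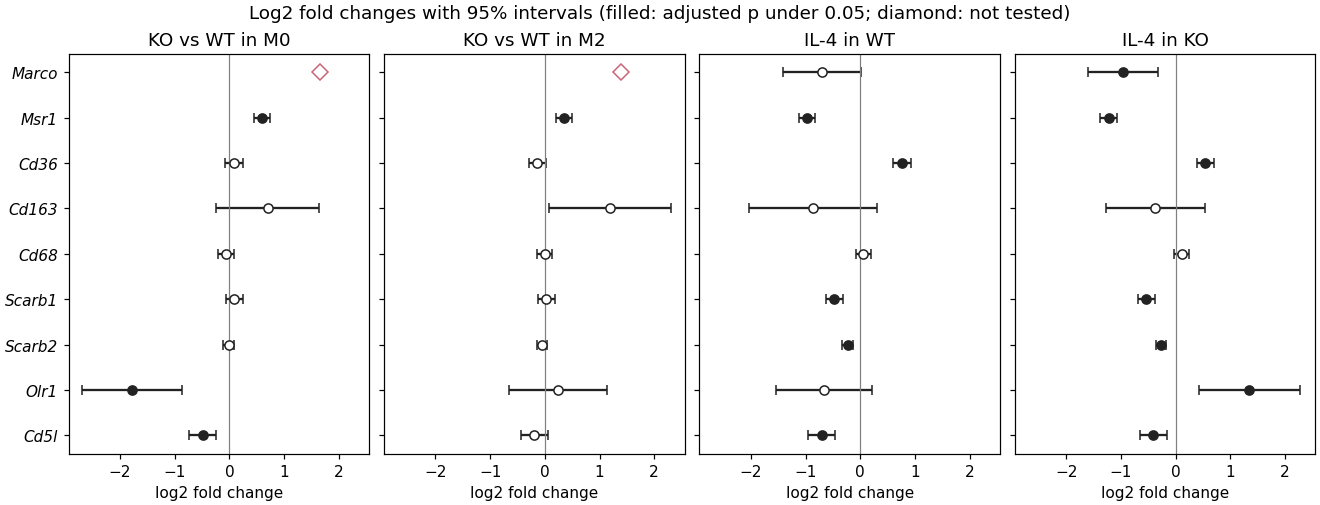
Log2 fold changes of the 9 genes (horizontal axes) in the 4 comparisons, with 95% intervals from the edgeR fit. Filled points had an adjusted p under 0.05, and the diamonds are the differences of Marco on which it was selected, drawn without interval or test. Msr1 lies to the right for KO in M0 (0.60) and in M2 (0.35) and to the left for IL-4 in both genotypes. Cd36 lies to the right for IL-4 in both, and the intervals of Olr1 and Cd163 are the widest.

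The genes whose log2 CPM followed Marco most closely over the 12 libraries, among the 9746 genes that averaged 5 CPM or more, were Nucb2 (Pearson r 0.93), App (0.93), Mbd6 (0.92), Lgals9 (0.92) and Eepd1 (0.92). Their differences between KO and WT were smaller than that of Marco, from 0.09 (Mbd6) to 0.31 (Nucb2) in M0 and from 0.11 (Mbd6) to 0.34 (Nucb2) in M2. Msr1 was followed by Glud1 (0.99), Adgre5 (0.99) and Slc44a2 (0.98). Of these, Adgre5, the adhesion receptor CD97, had log2 fold changes near those of Msr1 (0.66 for KO in M0, 0.35 in M2, and -0.99 in WT and -1.30 in KO with IL-4). Cd36 was followed by Hsp90ab1, Arhgap10 and Reep3 (0.99 each), Scarb1 by Tbc1d10b (0.99), Ptpn6 and Llgl1 (0.98 each), and Scarb2 by Trim24, Natd1 and Magi3 (0.98 each). Cd68 was followed by Ctsa (0.91), Ms4a7 and Hexa (0.90 each), of which Ctsa and Hexa encode lysosomal enzymes. Cd5l was followed by Med22, Nfkb2 and Zwint (0.94 each), Cd163 by Lsp1, Emb and Galnt4 (0.93 each), and Olr1 by Taf1b (0.89), Mphosph10 (0.88) and Chchd4 (0.87). These coefficients describe 12 libraries that share their genotypes and treatments and are the highest among many genes.

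Of 24 other scavenger and related uptake receptors, 16 passed the filter on low counts. In M0, 1 of them was lower in KO and none was higher (median -0.12), against 9.78% of all genes called in either direction. In M2 edgeR called none (median -0.04), with 1 at an unadjusted p under 0.05 (Colec12), which DESeq2 called and limma did not. The one was Mrc1, the mannose receptor, at 75.9, 99.5 and 94.7 TPM in WT M0 and 45.5, 50.5 and 53.8 TPM in KO M0. The log2 difference was -0.86 (SE 0.10, edgeR adjusted p = 5.22e-04) and was called in all 15 alternatives. IL-4 raised 6 and lowered 5 of the 16 in WT, and raised 5 and lowered 5 in KO, against 50.0% and 52.8% of all genes called. Among the genes that averaged 5 CPM or more, the largest rises were those of Clec7a, the β-glucan receptor Dectin-1 (4.84 in WT and 4.52 in KO), and Mrc1 (3.27 and 3.96). At that level the largest falls were those of Cxcl16, a chemokine that also binds oxidized LDL (-1.54 and -1.32), and Colec12, a collectin of the scavenger receptor family (-1.001 and -1.22). Megf10, an engulfment receptor below that level (mean 0.31 CPM), was also called as lower in both genotypes and is named after its values were seen. Only Mrc1 was called for the difference between the responses (0.69, edgeR adjusted p = 0.0233). This call was lost without any 1 of 6 libraries (M0 of WT mouse 2 and of KO mice 1 and 2, M2 of WT mouse 2 and of KO mice 2 and 3, edgeR adjusted p 0.0532 to 0.0689).

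Lipids taken up by scavenger receptors are hydrolysed, esterified, stored or exported, and 18 genes of these steps were all tested. In KO M0, 3 were higher and 2 lower (median 0.17), against 5.50% and 4.27% of all genes. Soat1, which esterifies cholesterol for storage, stood at 71.2, 60.6 and 54.0 TPM in WT M0 and 86.4, 82.3 and 84.1 TPM in KO M0 (0.45, SE 0.07, edgeR adjusted p = 0.00168). Nceh1, which hydrolyses cholesteryl esters, was higher by 0.34 (edgeR adjusted p = 0.0243). Lower were the cholesterol exporter Abca1 (-0.72, edgeR adjusted p = 0.0432) and the acyl-CoA synthetase Acsl1 (-0.44, edgeR adjusted p = 0.00423). The call of Abca1 was lost without any 1 of 5 libraries (all but WT mouse 3, edgeR adjusted p 0.0908 to 0.145). That of Nceh1 was lost without any 1 of 4 (WT mouse 2 and each KO mouse, 0.0622 to 0.0933), whereas Soat1 and Acsl1 kept theirs in all 6 fits. The calls of Abca1 and Nceh1 were also lost with limma (adjusted p 0.115 and 0.137, and 0.0575 and 0.0599). The same held with only the libraries of the comparison (edgeR adjusted p 0.0649 and 0.0575) and without both libraries of KO mouse 1 (0.104 and 0.0619). That of Abca1 was lost with the replicate block as well (edgeR adjusted p = 0.0655). In M2, 1 was higher (Pnpla2, a triglyceride lipase, 0.25, edgeR adjusted p = 0.0498, lost without any 1 of 5 libraries, all but WT mouse 1, edgeR adjusted p 0.0831 to 0.159). This call was also lost with RLE factors (edgeR adjusted p = 0.0517) and limma (adjusted p 0.0989 and 0.102). It did not hold with only the libraries of the comparison, the replicate block or without both libraries of KO mouse 1 (edgeR adjusted p 0.114, 0.0538 and 0.101).

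With IL-4, 4 of these 18 genes rose and 6 fell in WT, and 4 rose and 8 fell in KO. Of all genes, 24.9% rose and 25.1% fell in WT, and 26.8% and 26.0% in KO. The cholesterol exporter Abcg1 rose by 2.22 in WT and 2.24 in KO, and Npc1, which moves cholesterol out of the lysosome, by 0.78 and 0.50. The largest falls were those of Cav1, the coat protein of caveolae (-3.38 in WT and -3.39 in KO), and Abca1 (-1.80 and -1.43). Acsl1 (0.45, edgeR adjusted p = 0.0424) and Soat1 (-0.42, edgeR adjusted p = 0.0279) were called for the difference between the responses. The calls were lost in 10 and 8 of 12 fits without 1 library (edgeR adjusted p up to 0.128 and 0.0840). Among these fits, the call of Acsl1 held without the M0 library of WT mouse 3 or the M2 library of KO mouse 1. That of Soat1 held without the M0 library of WT mouse 1 or 3, the M2 library of WT mouse 3 or that of KO mouse 1.

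Of 22 genes of co-receptors, signalling partners, sheddases and cargo, 20 were tested. In KO M0, 3 were higher and 2 lower (median 0.04), where 9.78% of all genes were called. Tlr4, the receptor for LPS, stood at 39.95, 37.6 and 32.5 TPM in WT M0 and 61.1, 54.2 and 55.5 TPM in KO M0 (0.59, SE 0.06, edgeR adjusted p = 2.84e-04). Tlr2, a receptor for bacterial lipoproteins that works with Cd36, had the opposite direction. It stood at 112, 136 and 129 TPM in WT M0 and 63.8, 66.3 and 59.4 TPM in KO M0 (-0.99, SE 0.10, edgeR adjusted p = 1.64e-04). Both were called in each of the 15 alternatives. Tlr6, which pairs with Tlr2, was higher by 0.36 (edgeR adjusted p = 0.0367) and the tetraspanin Cd81 was lower (-0.25, edgeR adjusted p = 0.0223). The call of Tlr6 was lost without any 1 of 4 libraries (WT mice 1 and 2, KO mice 2 and 3, edgeR adjusted p 0.0675 to 0.150), and that of Cd81 without any 1 of 5 (all but WT mouse 1, 0.0535 to 0.0828). That of Tlr6 was also lost with limma (adjusted p 0.109 and 0.104) and with only the libraries of the comparison (edgeR adjusted p = 0.0946). In M2 the one called gene was Hmox1, which degrades the haem that Cd163 brings in (-0.58, edgeR adjusted p = 0.0285). The call was lost without WT mouse 1 or 2 or KO mouse 2 or 3 (edgeR adjusted p 0.0887 to 0.126). It was also lost with limma (adjusted p 0.0562 and 0.0588) and with only the libraries of the comparison (edgeR adjusted p = 0.0770). The level of Hmox1 in M2 was 1138, 1112 and 842 TPM in WT and 764, 627 and 634 TPM in KO.

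IL-4 raised 8 and lowered 6 of the 20 in each genotype, beside 50.0% of all genes called in WT and 52.8% in KO. Fyn, a kinase that signals downstream of Cd36, rose by 2.50 in WT and 2.40 in KO, Tlr4 by 1.21 and 0.46, and Cd81 by 0.38 and 0.65. The largest falls were those of Tlr2 (-4.67 in WT and -3.60 in KO) and Cd14, the LPS co-receptor (-3.09 and -2.86). Tlr2 differed between the responses (1.07, edgeR adjusted p = 0.00627), as did Tlr4 (-0.74, edgeR adjusted p = 0.00257), and both were called in each of 20 alternatives.

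Of 15 transcription factors known from macrophages, all were tested. In KO M0 Maf was higher (0.43, edgeR adjusted p = 0.0237) and Cebpb lower (-0.48, edgeR adjusted p = 0.0180), with a list median of 0.03 and 9.78% of all genes called. In M2 edgeR called none (median 0.07), with 3 at an unadjusted p under 0.05 (Cebpb, Spi1 and Stat6), of which DESeq2 called Cebpb and Spi1 and limma none. The call of Maf was lost without any 1 of 5 M0 libraries (all but WT mouse 3, edgeR adjusted p 0.0591 to 0.1004), that of Cebpb without KO mouse 2 or 3 (edgeR adjusted p 0.0559 and 0.0828). Without both libraries of KO mouse 1 the M0 call of Maf was lost as well (edgeR adjusted p = 0.0590). That of Cebpb in M0 was also lost with only the libraries of the comparison (edgeR adjusted p = 0.0514). IL-4 raised 8 and lowered 4 of the 15 in each genotype, while 24.9% of all genes rose and 25.1% fell in WT, and 26.8% and 26.0% in KO. Egr2 and Bhlhe40, factors of alternative activation, rose by 4.64 and 3.83 in WT and by 4.92 and 3.73 in KO. Falls were called for Nr1h3, the lipid sensor LXRα (-1.60 in WT and -1.54 in KO), and for Nfe2l2, the antioxidant factor NRF2 (-0.48 in both). Cebpb fell in WT (-0.62) and stood at 0.20 in KO, where it was not called (edgeR adjusted p = 0.149). Cebpb (0.82, edgeR adjusted p = 0.0151), Maf (-0.60, edgeR adjusted p = 0.0490) and Stat6, which carries the IL-4 signal to the nucleus (-0.23, edgeR adjusted p = 0.0480), were called for the difference between the responses. These calls were lost in 1, 9 and 9 of 12 fits without 1 library. That of Cebpb was lost without the M2 library of WT mouse 2 (edgeR adjusted p = 0.0511), and those of Maf and Stat6 in all but the fits without the M0 library of WT mouse 3 or the M2 library of WT mouse 3 or KO mouse 1 (edgeR adjusted p up to 0.132 and 0.129).

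**Figure D4:**
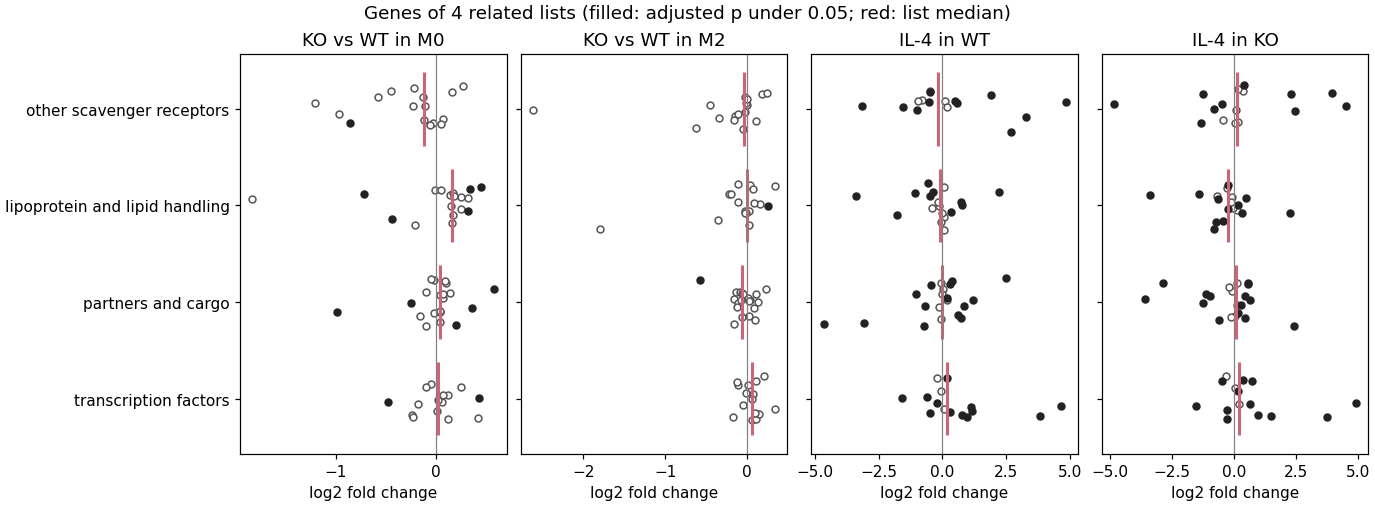
Log2 fold changes (horizontal axes) of the tested genes of 4 lists (other scavenger receptors, lipid handling, partners and cargo, transcription factors) in the 4 comparisons. Each point is 1 gene, filled with an adjusted p under 0.05, and the red line is the median of the list. The medians stay within 0.17 of 0 for KO against WT, few points are filled there, and filled points lie on both sides of 0 for IL-4.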

How the data were processed

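Poly(A) RNA of 12 BMM cultures was sequenced as single reads of 75 nt. Per the labels and the study's methods, the authors processed reads with the Grape-nf pipeline under Nextflow and aligned them to GRCm38/mm10, with FastQC 0.11.2 and DESeq2 1.40.2 among the tools named. The quantification program within that pipeline, the annotation and the use of strand in counting are not given in the sources used here. The authors deposited, per library and gene, expected counts (estimated reads, whole for all 108 values of the 9 genes), TPM, and an effective length that can differ between libraries. The 4 deposited tables of the authors' own DESeq2 comparisons supplied gene symbols only.

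Groups came from the labels. Expected counts were rounded, filtered with filterByExpr by group and fitted over all 12 libraries with edgeR 4.0.16 (TMM, quasi-likelihood F test, 1 coefficient per group, 12846 genes, biological coefficient of variation 8.08%), with Benjamini-Hochberg adjustment over all genes. In simulated counts with 200 of 12846 genes changed by a log2 of 1, it called 84.5% of them for KO against WT in M0 and 75.5% for the difference between the responses. The simulated spread followed the trend over expression level and not that of single genes. These shares are thus no estimate for Marco, Olr1 or Cd163. Exact permutation of 3 against 3 libraries cannot give a p under 0.1 for 1 gene. Alternatives were RLE factors, 2 other filters, DESeq2 1.42.0, limma 3.58.1 (log2 TPM with pseudocounts of 1 or 0.1), only the libraries of a comparison, a replicate block, and leaving out each library. Leaving out KO mouse 1 altogether was chosen after seeing the data. M0 and M2 libraries of 1 mouse deviated together from their group means (r 0.331, 0.103 and 0.364 in WT, 0.166, 0.160 and 0.209 in KO), whereas libraries of the same number did not across genotypes (-0.068 to 0.040), so the block pairs libraries in the IL-4 comparisons and in the comparison of the responses.

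The 9 members and all gene lists were chosen with earlier results of these data known. Named are the members, the 5 genes nearest to Marco and the 3 nearest to each other member by Pearson r of log2 CPM (mean of at least 5 CPM), and per list and comparison the 2 called genes with the largest rise and the 2 with the largest fall at that level. Gene positions are from GENCODE M21 (GRCm38). R 4.3.3 and Python 3.11.15 were used.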

Additional observations from a re-analysis of the deposited data

Results flagged for a closer look

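The response to IL-4 differed between WT and KO macrophages, by the test of the difference itself (edgeR, mice unpaired), for 8 of 68 tested genes of the 4 related lists, against 3.24% of all genes. The lists were chosen with earlier results of these data known, so that these shares describe the lists and do not test them. Of the 8 members tested this fit called none, whereas with the mouse as a block, which pairs M0 and M2 of an animal, it called Msr1 and Cd5l (edgeR adjusted p = 0.0492 and 0.0218). The 8 list genes were also called with the block. Tlr2 and Tlr4 were called in each fit without 1 library, while the calls of Mrc1, Acsl1, Soat1, Cebpb, Maf and Stat6 were lost in at least 1, and those of Mrc1, Acsl1, Soat1 and Stat6 also with limma. Without both libraries of KO mouse 1 these 6 calls were lost as well (edgeR adjusted p 0.0599 to 0.103), and that of Stat6 without a filter on low counts (edgeR adjusted p = 0.0988). On the log2 scale the difference (KO response minus WT response) was 1.07 for Tlr2, 0.82 for Cebpb, 0.69 for Mrc1 and 0.45 for Acsl1. It was negative for Tlr4 (-0.74), Maf (-0.60), Soat1 (-0.42) and Stat6 (-0.23). For Tlr2, IL-4 brought both genotypes to a like level (4.02 to 5.43 TPM in WT and 4.07 to 5.59 TPM in KO) from unequal M0 levels of 112 to 136 and 59.4 to 66.3 TPM. Mrc1 had a larger log2 difference between the genotypes in M0 (-0.86) than in M2 (-0.16), with M2 levels of 796 to 872 TPM in WT and 662 to 788 TPM in KO. Cebpb fell in WT with IL-4, from 164 to 217 TPM to 109 to 127 TPM, while in KO it stood at 121 to 143 TPM in M0 and 143 to 148 TPM in M2.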

How the results depend on the processing

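Of 713 values of the 9 members under alternatives, 670 kept their direction and, where tested, their side of the threshold, 20 were no longer called, 9 became called and 14 changed sign. The untested values of Marco counted as kept if the direction held and the shift was under its pooled SD (0.47 on the log2 CPM scale). One of the 14 was the difference between the responses for Marco, which lay between -0.54 and 0.0176 without 1 library, the latter without the M2 library of KO mouse 1. The other 13 were of comparisons called in no fit. For KO against WT in M2 these were Scarb1 (-0.015 with either limma fit and -0.017 without KO mouse 1) and Cd68 (0.0029 without a filter), and in M0 Scarb2 (0.0013 without KO mouse 1). Without 1 library, Scarb1 in M2 lay between -0.017 and 0.090, Cd68 in M2 between -0.061 and 0.062, Olr1 in M2 between -0.053 and 0.46, Scarb2 in M0 between -0.036 and 0.0088, Igf2bp2 in M0 between -0.26 and 0.042, Cd68 with IL-4 in WT between -0.0085 and 0.12, and its difference between the responses between -0.00080 and 0.12. Of 895 values of the other named genes, 772 kept theirs, 122 were no longer called and 1 (Igf2bp2 in M0) changed sign. All genes called between KO and WT in M0 numbered 752 and 700 with limma on log2(TPM + 1) and log2(TPM + 0.1), and 461 to 1461 without 1 library. In M2 they numbered 702 with DESeq2, 70 and 57 with limma, 165 with only the libraries of the comparison, 224 without KO mouse 1 and 25 to 298 without 1 library. For the difference between the responses they numbered 820 with DESeq2, 113 with either limma fit, 173 without KO mouse 1 and 183 to 643 without 1 library. With the replicate block, which pairs the M0 and M2 libraries of a mouse, they numbered 1003 and the members called 2. Members called numbered 1 to 3 in M0 without 1 library, 0 with either limma fit and 0 to 1 without 1 library in M2, and 0 to 1 without 1 library for the difference. Beyond the members given with the block in the report, it changed no call of the members for IL-4 or the difference. Across the genotypes the library number pairs no animals, and the block left 3 and 1 members called in M0 and M2. The cause of these changes was not tested. The filter of 1 CPM in 3 libraries leaves out Olr1, and the difference cannot be fitted with only 1 comparison's libraries. Depth limits Olr1 and Cd163, which had 3 to 48 counts per library.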
